A study of Mus musculus with 15 samples.

Results

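Voltage-gated and related ion channel genes are described here by the DNA methylation around their start sites in mouse bone marrow progenitors. The members are all autosomal protein-coding genes of the GENCODE vM1 annotation whose symbol begins with Kcn (potassium channels), Scn (sodium channels) or Cacn (calcium channels) followed by a letter or digit, except Kcnq1 and Scnm1. Of 133 such genes, 70 had at least 3 CpGs within 1 kb of a start with at least 10 reads in all 15 libraries, and these 70 were tested among 10532 promoters of autosomal protein-coding genes. Of the others, 44 had no such CpG and 19 had 1 or 2. The symbols also take in channels that voltage does not open: the inward rectifiers (Kcnj), two-pore channels (Kcnk), small-conductance calcium-activated channels (Kcnn) and epithelial sodium channels (Scnn).

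Voltage-gated channels open when the membrane potential changes and let potassium, sodium or calcium ions cross the membrane, which shapes the firing of neurons and muscle. A channel is built from pore-forming subunits and from auxiliary subunits that set its gating and its transport to the membrane. Most of these genes are known for their roles in nerve, muscle and heart, and blood progenitors are not a tissue in which most of them are studied. Their starts often lie in CpG-rich sequence, which in most tissues carries little methylation.

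The assay was reduced representation bisulfite sequencing, in which a restriction enzyme enriches CpG-rich fragments and bisulfite converts unmethylated cytosines, so that the share of unconverted reads gives the methylation level. All 15 libraries came from marrow of C57BL/6 mice. Granulocyte-macrophage progenitors (GMP) carried the markers Lin-cKit+, Sca1-, CD34+ and Cd16/32+, and megakaryocyte-erythroid progenitors (MEP) lacked CD34 and Cd16/32. Cells labelled WT had the genotype Mx1-cre+;Dnmt3af/f, so that they carry floxed Dnmt3a and the Cre transgene. Knockout cells were Mx1-cre+;Dnmt3a-/-, and so lacked Dnmt3a, which is among the enzymes that methylate DNA de novo. Idh2 mutant cells were Mx1-cre-;Dnmt3af/f;Idh2 R140Q, in which a mitochondrial dehydrogenase carries a change known from leukaemia, and had no Cre. Each of these genotypes gave 2 GMP and 2 MEP libraries. The double mutant (Mx1-cre+;Dnmt3a-/-;Idh2 R140Q) gave 3 libraries of marrow cells labelled malignant, sorted with the MEP markers, and it was compared with MEP. Mx1-cre is driven by an interferon-inducible promoter, and how or when it was induced is not given in the sources used here. The labels call the samples biological replicates without naming animals, so the p-values may measure only the spread between samples. Genotype and malignancy cannot be told apart in the double mutant.

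The files held 19306705 to 35204906 reads per library. A member promoter had 3 to 29 kept CpGs and 36 to 1698 reads per library, with library medians of 266 to 497 reads. X chromosome reads came to 2.21% to 2.25% of autosomal reads in the wild type libraries and 1.17% to 1.47% in all others, and Y chromosome reads to 0.0054% to 0.00575% in wild type, 0.0199% to 0.0303% in the single mutants and 0.0357% to 0.0386% in the double mutant. The groups thus differ in sex chromosome reads, whose part in the results was not tested, and all members are autosomal. Of the marker genes of blood cell types, the promoters of 4 of 12 erythroid and megakaryocyte genes were measured, at 0.757% to 17.6% in wild type MEP and 0.448% to 18.5% in wild type GMP. Promoters of 3 of 10 granulocyte and macrophage genes were measured, at 2.31% to 9.70% in MEP and 1.01% to 9.40% in GMP. Of 7 lymphoid genes 1 was measured, at 10.6% in MEP and 6.40% in GMP, and of the 4 stromal genes none was. Expression was not measured, and none of these markers differed between MEP and GMP at an adjusted p under 0.05 in the quasi-binomial model. The double mutant was higher than wild type MEP at 2 of these 8 markers, Itga2b of the megakaryocyte list (17.6% to 32.2%) and Fcgr3 of the macrophage list (9.70% to 26.7%). The part of cell composition in the results was not tested.

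Stretches of mm9 sequence from 4 of the member promoters with the largest gain in the double mutant are printed 5′ to 3′ on the strand of the gene, because the gain was spread unevenly over neighbouring CpGs. Capitals mark the CpGs that were measured in all 15 libraries. Other CpGs in the stretches did not reach 10 reads in every library. The Kcnf1 stretch (chr12:17182841-17182965, minus strand) lies in the coding exon, the Kcnk2 stretch (chr1:191167754-191167959, minus strand) upstream of the gene, and the Scnn1b (chr7:129008656-129008688, plus strand) and Kcns3 (chr12:11157270-11157494, minus strand) stretches in introns.
Kcnf1: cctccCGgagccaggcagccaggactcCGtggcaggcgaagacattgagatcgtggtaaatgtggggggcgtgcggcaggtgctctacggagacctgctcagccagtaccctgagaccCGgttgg
Kcnk2: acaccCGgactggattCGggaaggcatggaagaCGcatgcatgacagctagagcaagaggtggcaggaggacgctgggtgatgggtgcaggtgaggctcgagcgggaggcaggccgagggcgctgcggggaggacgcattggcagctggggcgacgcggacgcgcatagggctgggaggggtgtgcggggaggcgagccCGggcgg
Scnn1b: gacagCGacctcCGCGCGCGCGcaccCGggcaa
Kcns3: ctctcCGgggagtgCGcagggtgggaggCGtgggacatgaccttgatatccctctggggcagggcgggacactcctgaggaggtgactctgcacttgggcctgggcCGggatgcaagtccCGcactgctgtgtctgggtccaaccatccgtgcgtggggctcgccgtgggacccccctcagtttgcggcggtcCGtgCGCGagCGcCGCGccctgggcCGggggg
In the Kcnf1 stretch the mean levels of the 3 measured CpGs in order were 3.06%, 9.11% and 0% in wild type MEP and 56.9%, 93.9% and 9.10% in the double mutant. The CpG 51 bases after the nearest start was nearly fully methylated, and the one 142 bases after it hardly at all. In the Scnn1b stretch 7 CpGs lie within 33 bases. Their levels ran from 0% to 13.5% in wild type MEP and from 23.6% to 92.6% in the double mutant, highest at the seventh. In the Kcns3 stretch 12 CpGs ran from 0% to 12.2% in wild type MEP and from 10.7% to 79.8% in the double mutant. The first CpG was the highest, and the last 6 lay between 17.2% and 25.6%. In the Kcnk2 stretch the third CpG was at 33.5% in wild type MEP and 27.4% in the double mutant, while the second and the fourth went from 4.19% to 40.8% and from 2.35% to 34.7%.

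Ion channel promoters carried more methylation in the double mutant than in any other group. The mean level over the 70 promoters was 21.3%, 24.7% and 20.2% in the double mutant libraries, 8.19% and 9.67% in wild type MEP, 6.73% and 9.04% in knockout MEP, and 10% in both libraries of Idh2 mutant MEP. The GMP libraries gave 9.10% and 9.51% in wild type, 7.96% and 9.15% in knockout, and 10% and 11.4% in Idh2 mutant cells. The double mutant libraries lay above all 12 others, which ranged from 6.73% to 11.4%. Over all 10532 promoters the mean was 11.8%, 12.8% and 11.9% in the double mutant and 7.47% to 10.1% in the others. A mean level of 10% or more was found at 47 of the 70 promoters in the double mutant and at 13 (knockout MEP) to 21 (Idh2 mutant GMP) in the other groups.

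**Figure D1:**
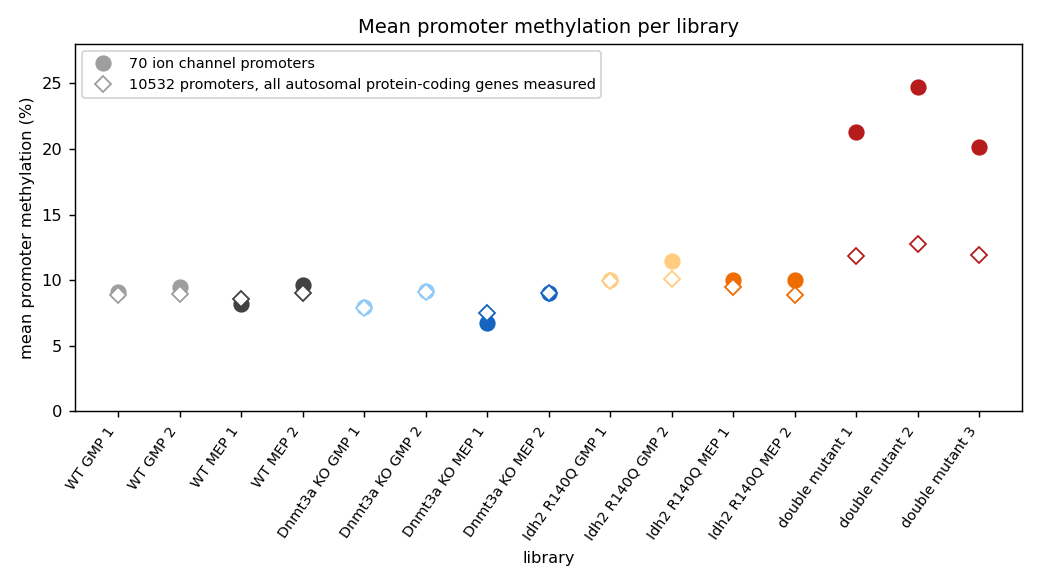
Mean promoter methylation (%) of the 70 ion channel genes (filled circles) and of all 10532 promoters (open diamonds) in each of the 15 libraries, coloured by group. The 3 double mutant libraries sit at 20.2% to 24.7% for the ion channel genes, above the 12 other libraries and above the mean over all promoters in the same libraries.

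Against wild type MEP, 31 of the 70 promoters (44.3%) were higher in the double mutant and 0 were lower, at an adjusted p under 0.05 in the quasi-binomial model and a difference of at least 10 percentage points. Over all promoters 11.1% were called higher and 0.598% lower. At an unadjusted p under 0.05, without the limit of 10 points, 47 members were higher and 1 was lower. The share of all promoters at this unadjusted cut, here and in later paragraphs, was not computed. The median difference was 9.51 points over the members and 0.25 points over all promoters, and the difference was above 0 at 63 of the 70 members and at 66.3% of all promoters. In a list of 55 other measured ion channel genes, 19 were called higher (34.5%). The 31 differences ran from 10.7 to 51.8 points, with a median of 25.6, and the median double mutant level of these genes was 29.6%. Of the 31, 26 were under 10% in wild type MEP, and 23 were under 10% in the mean of each of the 6 other groups. The second double mutant library was the highest of the 3 at 21 of the 31 promoters, the third at 6 and the first at 4.

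**Figure D2:**
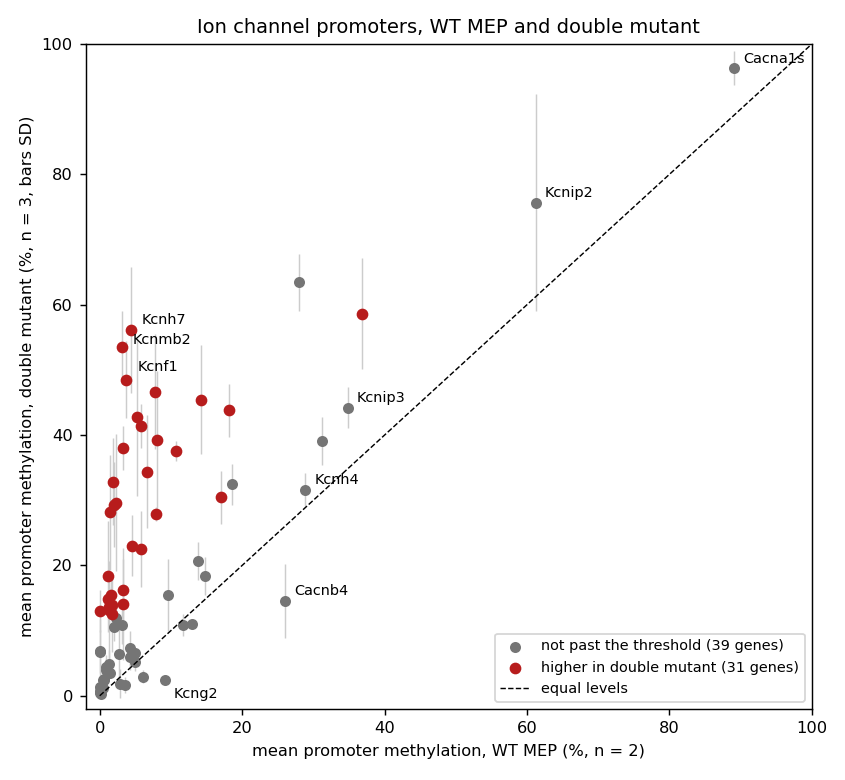
Mean promoter methylation (%) of each of the 70 ion channel genes in wild type MEP (x axis, n = 2) and in the double mutant (y axis, n = 3, bars are SD); red points are the 31 genes called higher in the double mutant. Of the 31 red points, 26 lie under 10% on the x axis, all lie above the dashed line of equal levels, and no gene was called lower.

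Against knockout MEP, 32 promoters were higher (13.5% of all promoters) and 0 were lower (0.788% of all), with a median difference of 11.6 points against 0.13 over all promoters. Against Idh2 mutant MEP, 30 were higher (11.1% of all) and 1, Kcng2, was lower (1.49% of all), with medians of 8.51 and 0.15 points. These comparisons share the double mutant libraries. In all 3 of them 23 members were higher (32.9%), compared with 9.1% of all promoters, 10 were higher in exactly 2 and 4 in 1, and 33 in none. All 3 double mutant libraries lay above all 12 other libraries at 35 members (14.4% of all promoters), by at least 10 points at 17 of them (6.07% of all). They lay below all 12 at Kcng2 and Kcnh6 (0.864% of all). In a test of whether the double mutant went beyond the sum of the differences of both single mutants, 16 members were above 0 (8.18% of all promoters) and 2 below (1.18% of all). The points there sum levels, while the p-value is for a sum on the logit scale, so they need not depart together.

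**Figure D3:**
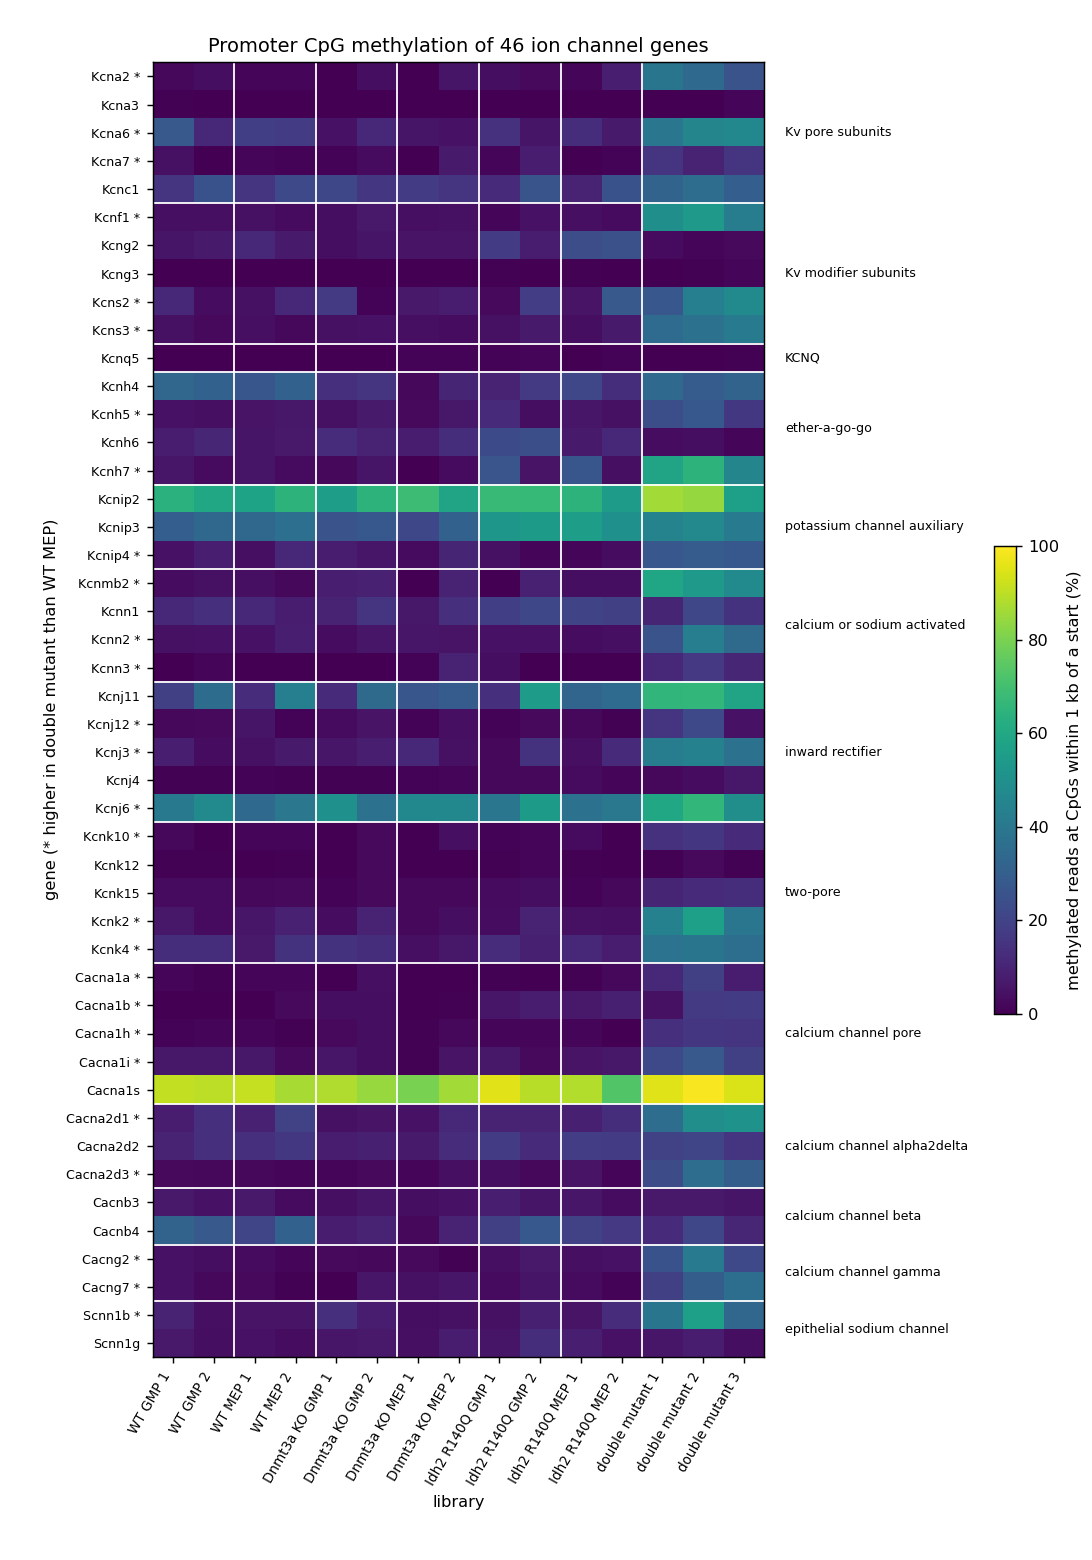
Promoter methylation (colour, 0% to 100%) of 46 of the 70 ion channel genes, those named in the text (vertical axis, by family), in the 15 libraries (horizontal axis); asterisks mark the 27 of them that were higher in the double mutant than in wild type MEP. The 3 right columns, the double mutant, lie above all 12 other libraries at 23 of the marked genes, while Cacnb3 looks alike across groups and Cacnb4 is darkest in the knockout.

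The voltage-gated potassium channel pores had 5 of 10 promoters higher in the double mutant. Kcna2, which encodes a Shaker-type channel that shapes axonal firing, was at 1.89% and 1.87% in wild type MEP and at 38.7%, 34.2% and 25.6% in the double mutant (adjusted p = 0.000607 in the quasi-binomial model). None of the 12 other libraries passed 8.54% at this promoter, but without the first Idh2 mutant MEP library the call against Idh2 mutant MEP ended (adjusted p = 0.055). Kcna6, another Shaker-type channel, was at 18.6% and 17.8% in wild type MEP, 5.52% and 4.90% in knockout MEP and 39.2%, 45.6% and 46.7% in the double mutant. These 3 groups did not overlap, and the knockout lay below the wild type. Idh2 mutant MEP had a mean of 10.1%, also below the wild type MEP mean of 18.2%. Kcnc1, a fast Shaw-type channel and the most methylated of these pores in wild type, went from 15.1% and 22.1% to 31.7%, 35.8% and 29.8%, which did not pass the threshold (adjusted p = 0.0781 in the quasi-binomial model). With CpGs within 500 bp it did (30 points, adjusted p = 1.19e-05). Kcna3, the Shaker-type channel known from lymphocytes, was the lowest, at 0% in both wild type MEP libraries and at 0%, 0% and 1.44% in the double mutant.

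Of the modifier subunits, which form no channel alone and alter the Kcnb pores, 3 of 6 were higher. Kcnf1 was at 4.55% and 2.96% in wild type MEP, 3.94% and 4.68% in knockout MEP, 4.24% and 2.84% in Idh2 mutant MEP and 49.6%, 53.7% and 42.1% in the double mutant. The double mutant exceeded each MEP group by 44.2 to 45.0 points (adjusted p = 1.17e-06 against wild type in the quasi-binomial model). Kcns3 went from 4.27% and 2.28% to 34.8%, 37.8% and 41.5% (adjusted p = 7.39e-07). It was at 2.67% to 7.35% in the other 10 libraries. Kcns2 was at 4.62% and 11.6% in wild type MEP and at 27.3%, 43.0% and 47.5% in the double mutant (adjusted p = 0.0275), but 1 Idh2 mutant MEP library was at 27.8%, so the groups overlapped. The Kcns2 call ended without the second or the third double mutant library or either wild type MEP library (adjusted p of 0.0563 to 0.230) and with a replicate block (0.124). Kcng3 stayed at or under 1.46% in all 15 libraries.

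Kcng2, a modifier subunit on chromosome 18, had the opposite order. Its promoter level was 17.3% and 7.84% in Idh2 mutant GMP and 23.4% and 24.8% in Idh2 mutant MEP, 7.07% to 11.2% in wild type MEP, and 2.80%, 1.90% and 2.46% in the double mutant. The Idh2 mutant MEP libraries were the highest and the double mutant libraries the lowest of all 15. The double mutant fell by 21.7 points from Idh2 mutant MEP. Against wild type MEP it differed by -6.74 points (adjusted p = 0.00609), which is under the limit of 10 points.

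Of the KCNQ channels, which carry the slow current that restrains firing, Kcnq5 stayed at or under 1.81% in all libraries.

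The ether-a-go-go family had 2 of 5 promoters higher. Kcnh7, a channel of the ERG group, had the largest gain of all members, on 3 CpGs at 0 to 17 bases from the nearest start. It was at 5.69% and 2.96% in wild type MEP, 0% and 3.10% in knockout MEP and 58.3%, 64.6% and 45.6% in the double mutant, a difference of 51.8 points from wild type MEP (adjusted p = 0.000497 in the quasi-binomial model). The Idh2 mutant libraries were split: GMP and MEP of replicate 1 were at 26.2% and 26.7%, and those of replicate 2 at 5.43% and 4.19%. Without the second Idh2 mutant MEP library, the call against Idh2 mutant MEP ended (adjusted p = 0.244). Kcnh5 went from 5.20% and 6.49% in wild type MEP to 23.9%, 27.6% and 16.1%. All 12 other libraries were at 11.7% or less there.

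Of the auxiliary potassium channel subunits 1 of 6 was higher. Kcnip4, a calcium-binding partner of the Kv4 pores, went from 4.07% and 11.6% in wild type MEP to 27.1%, 29.0% and 27.5% (adjusted p = 0.00273 in the quasi-binomial model). With a minimum of 20 reads per CpG its difference was 2.15 points (adjusted p = 0.894). Kcnip2 was the most methylated of this family, at 58.0% and 64.5% in wild type MEP and 86.3%, 84.1% and 56.5% in the double mutant. The third double mutant library lay below both wild type MEP libraries, and Kcnip2 passed the test without it (24.0 points, adjusted p = 0.00279) and with a replicate block, where this library also does not bear on the contrast (adjusted p = 0.00742).

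The channels gated or tuned by calcium or sodium had 3 of 5 promoters higher. Kcnmb2, a beta subunit of the large-conductance channel, went from 3.98% and 2.22% in wild type MEP to 59.1%, 53.6% and 47.8% on 3 CpGs (50.4 points, adjusted p = 4.68e-06 in the quasi-binomial model). No other library passed 9.59%. Kcnn2, a small-conductance channel, went from 4.86% and 8.32% to 25.5%, 42.8% and 34.7%. Kcnn3, at 0% in both wild type MEP libraries, was at 11.6%, 16.7% and 10.6% in the double mutant, but at 9.71% in 1 knockout MEP library. Kcnn1 was the most methylated of them in wild type and went from 11.2% and 7.99% to 10.3%, 21.3% and 14.8%, with overlapping libraries (adjusted p = 0.198).

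**Figure D4:**
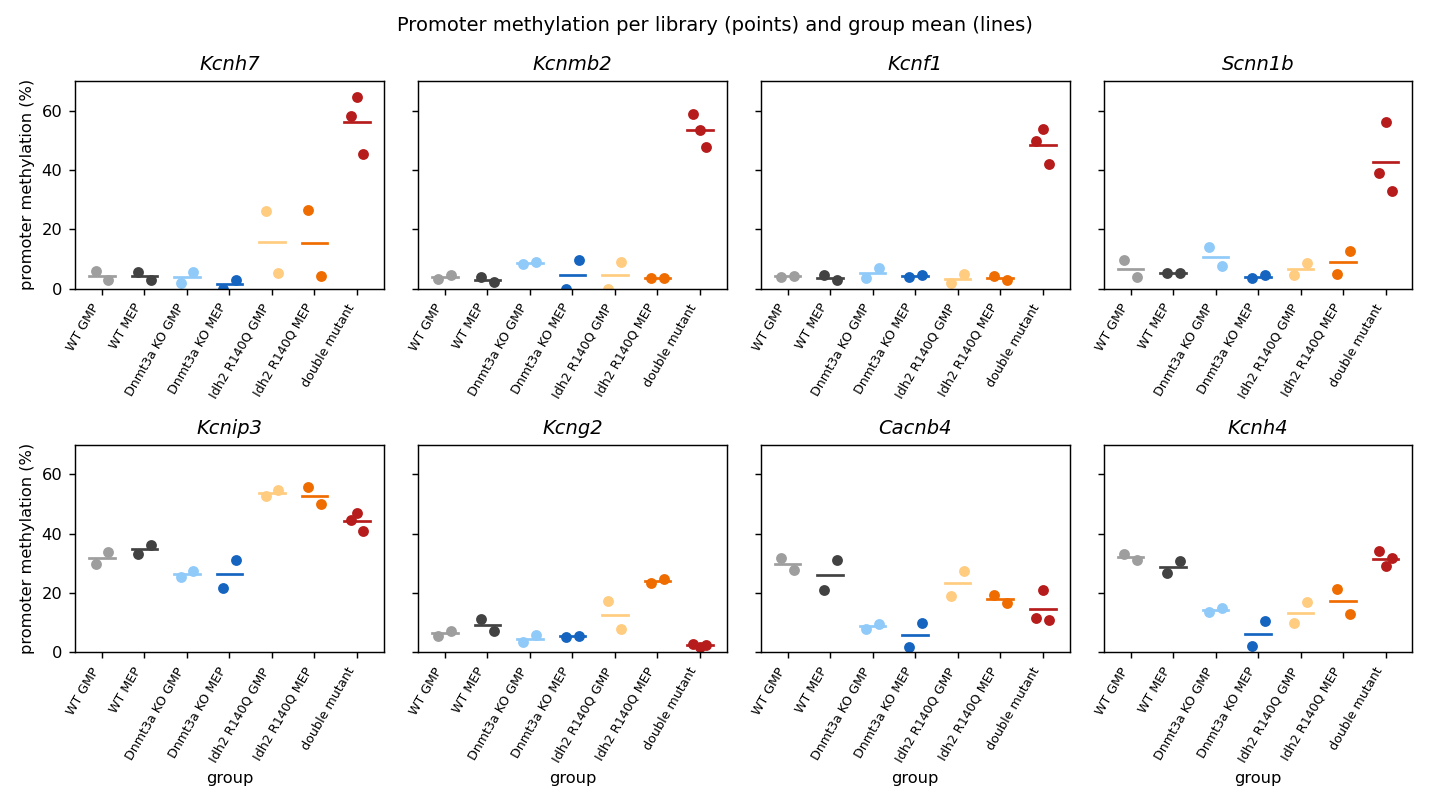
Promoter methylation (%) of 8 ion channel genes in each library (points) with the group mean (lines), by group. In the upper row (Kcnh7, Kcnmb2, Kcnf1, Scnn1b) the double mutant lies above all other libraries. In the lower row the group means of Kcnip3 and Kcng2 are highest in the Idh2 mutant. Those of Cacnb4 and Kcnh4 are lowest in knockout MEP.

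The inward rectifiers, which set the resting potential, had 3 of 7 promoters higher. Kcnj3, a G protein-gated channel, went from 4.65% and 7.05% in wild type MEP to 42.3%, 44.1% and 37.6% (35.5 points, adjusted p = 0.000508 in the quasi-binomial model), above the 14.8% of the highest other library. Kcnj6, its partner and the most methylated rectifier in wild type, went from 34.1% and 39.7% to 60%, 66.4% and 49.5%. This overlapped the Idh2 mutant and knockout GMP libraries, which reached 54.5% and 50.2%. Kcnj11, the pore of the ATP-sensitive channel, reached 65.6%, 66.2% and 58.4% in the double mutant, but its wild type MEP libraries were at 12.7% and 43.2% and it did not pass (adjusted p = 0.0714). Kcnj4 stayed at or under 6.40% in all libraries.

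The two-pore channels, which carry background potassium current, had 4 of 8 promoters higher. Kcnk2 (TREK-1), opened by membrane stretch, was at 6.19% and 9.35% in wild type MEP and at 44.1%, 56.5% and 39.4% in the double mutant (38.9 points, adjusted p = 6.31e-05 in the quasi-binomial model). Kcnk4, a related channel, went from 7.03% and 14.5% to 37.9%, 38.8% and 35.9%. In both genes the 12 other libraries stayed under 15%. Kcnk12 did not exceed 2.53% in any library.

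Among the calcium channels the family members differed. Both measured gamma subunits were higher: Cacng2 (stargazin), which also carries AMPA receptors to the synapse, went from 2.80% and 1.85% in wild type MEP to 25.2%, 41.6% and 22.1%. Cacng7 went from 2.39% and 0.484% to 18.8%, 29.3% and 36.3%. Of the alpha2delta subunits, which carry the pores to the membrane, 2 of 3 were higher: Cacna2d1 went from 9.28% and 19.1% to 35.8%, 49.4% and 51.0%, and Cacna2d3 from 2.25% and 1.73% to 22.7%, 35.8% and 29.3%. Cacna2d2 was at 13.3% and 16.2% and then 19.2%, 20.8% and 15.2%, which overlapped.

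The calcium channel pores had 4 of 6 promoters higher. Cacna1i, a T-type pore, went from 6.56% and 2.63% in wild type MEP to 22.1%, 28.1% and 18.9% (adjusted p = 0.000785 in the quasi-binomial model). Cacna1h, another T-type pore, went from 1.88% and 0.490% to 13.5%, 15.7% and 15.5%. Cacna1b, the N-type pore, went from 0.228% and 2.42% to 4.48%, 17.1% and 17.8%. The first double mutant library of Cacna1b lay below all 4 Idh2 mutant libraries, at 6.22% to 8.98%. Cacna1s, the skeletal muscle pore, was the most methylated promoter of all, at 91.2% and 87.1% in wild type MEP and 95.3%, 99.2% and 94.3% in the double mutant (adjusted p = 0.0971). None of the 4 beta subunits, the cytoplasmic partners of the pores, was higher, where 11.1% of all promoters were. A count of 0 among 4 does not set them apart from that share. Their differences ran from -11.5 (Cacnb4) to 1.64 points (Cacnb3). With equal weight for each CpG, Cacnb4 had means of 16.2% in wild type MEP and 10.6% in the double mutant.

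Sodium channels were measured at few promoters. Of the epithelial channel, Scnn1b went from 5.21% and 5.19% to 38.9%, 56.3% and 33.0% (37.5 points, adjusted p = 0.000192 in the quasi-binomial model), while Scnn1g, another subunit, was at 5.08% and 3.37% and then 6.22%, 7.67% and 3.73%. The groups overlapped at Scnn1g and were apart at Scnn1b, where no other library passed 14%.

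Of the 31 calls against wild type MEP, 24 held without each of the 5 libraries in turn. The other 7 were at Cacna1a, Cacna1b, Kcna7, Kcnj6, Kcnj12, Kcnk10 and Kcns2. The Cacna1a call ended without the second double mutant library (7.52 points) or either wild type MEP library (adjusted p of 0.0749 and 0.0807), and the Cacna1b call without the second or the third double mutant library (9.82 and 9.46 points) or the first wild type MEP library (0.0839). The Kcna7 call ended without the first or the third double mutant library (0.0685 and 0.0578) or either wild type MEP library (0.110 and 0.177). The Kcnj6 call ended without the first wild type MEP library (0.0738) and the Kcnk10 call without the second (0.0578). The Kcnj12 call ended without the first or second double mutant library (0.132 and 0.175) or the second wild type MEP library (0.368).

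The gain was not confined to 1 part of the promoter. Of 319 CpGs in the 31 called promoters, 217 had all 3 double mutant libraries above both wild type MEP libraries, compared with 73 of 450 CpGs in the other 39 promoters. These CpGs were divided by the same contrast that made the call, so the numbers describe where the gain lay. The share of all kept CpGs that meet this rule was not computed. For promoter levels, the same rule was met by 48 of the 70 members and by 3157 of all 10532 promoters. In the called promoters the mean difference was 28.5 points within the first 250 bases after the nearest start, 27.4 points in the next 250 bases, and 17.4 to 24.4 points in the other bins out to 1000 bases on either side. By annotation, the mean went from 4.07% to 32.2% at CpGs in untranslated exons, from 5.0% to 30.6% in introns, from 10.1% to 32.5% in coding exons and from 4.27% to 23.5% outside the gene.

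**Figure D5:**
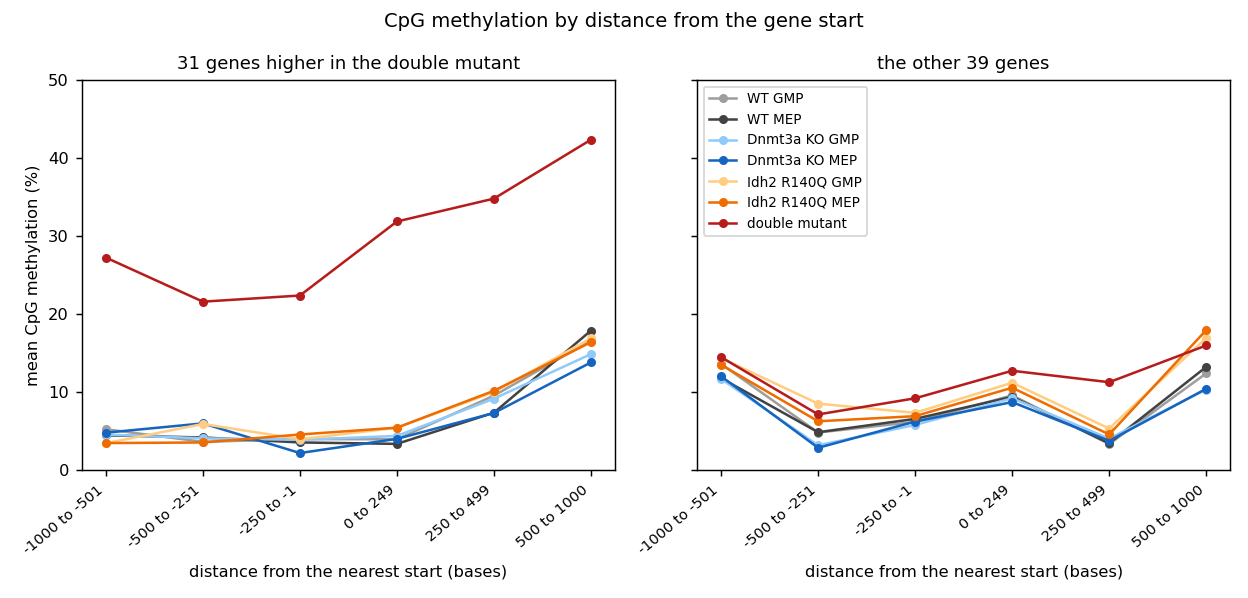
Mean CpG methylation (%) by distance from the nearest start (bases, negative values upstream) in each group, for the 31 promoters called higher in the double mutant (left) and the other 39 (right). On the left the double mutant lies 17.4 to 28.5 points above wild type MEP in every bin, and the 6 other groups lie close together.

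The share of promoters called differed by starting level. This level is also subtracted in the difference that was called, and a high level leaves little room for a rise. The shares by level therefore only describe. Under 1% in wild type MEP, 1 of 13 members was higher (1.93% of all promoters at that level). From 1% to 5% it was 18 of 29 members, or 62.1%, and 32.7% of all promoters. From 5% to 20% it was 11 of 20, or 55%, and 26.1% of all, and at 20% or more 1 of 8 and 10.8% of all. Member promoters had a median of 4.12 CpGs per 100 bases and 56.7% G and C, where all promoters had 3.40 and 52.6%. The 31 called members had 4.40 CpGs per 100 bases and the other 39 had 4.10. Of the members with too few CpGs to test, 6 had 2 CpGs, with differences of 3.63 to 32.3 points from wild type MEP, and the 10 members with exactly 3 ran from 0.48 to 51.8 points.

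The single mutants differed from wild type at few members. Against wild type, with GMP and MEP in equal weight, the Idh2 mutant had 2 promoters higher (1.2% of all promoters) and 1 lower (0.636% of all). Kcnip3, a calcium sensor that binds Kv4 pores and also DNA, was at 29.9% to 36.4% in the 4 wild type libraries, 21.8% to 31% in the knockout and 52.8%, 54.6%, 55.7% and 50% in the Idh2 mutant. The difference from wild type was 19.9 points (adjusted p = 0.00328 in the quasi-binomial model), and the difference from the knockout 26.8 points (adjusted p = 0.0004). The Idh2 mutant libraries lay above all others, the wild type and knockout ranges overlapped, and the double mutant was at 44.7%, 47.1% and 40.8%. Kcng2 differed by 10.6 points from wild type (adjusted p = 0.0118) and by 13.3 from the knockout (adjusted p = 0.00288), but the second Idh2 mutant GMP library, at 7.84%, lay within the wild type range of 5.65% to 11.2%. The Kcng2 call against wild type ended without the first wild type GMP (adjusted p = 0.066), second wild type MEP (9.53 points) or first Idh2 mutant GMP library (adjusted p = 0.141), and the count was then 1. Against the knockout, Kcnip3 and Kcng2 were the 2 members higher (1.16% of all) and 0 were lower (0.019% of all). By limma 0 members were called in this comparison, and 16 were higher and 1 lower at an unadjusted p under 0.05 in the quasi-binomial model.

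The knockout had 0 promoters higher than wild type (0.266% of all promoters) and 2 lower (0.836% of all), Kcnh4 and Cacnb4. At an unadjusted p under 0.05, 3 members were higher and 7 lower, and limma called 0. Kcnh4, an ether-a-go-go channel, was at 26.8% to 33.1% in wild type libraries, 13.8% and 14.9% in knockout GMP, 2.04% and 10.5% in knockout MEP and 9.82% to 21.3% in the Idh2 mutant (adjusted p = 0.0116 for the knockout and 0.0358 for the Idh2 mutant in the quasi-binomial model). Its 3 CpGs were unlike: the first was at 53.3% to 83.1% in the group means, and the others at 3.42% or less. The first CpG held 38.7% and 38.0% of the promoter's reads in wild type GMP and MEP, but 18.7% and 10.5% in the knockout and 19.8% and 23.1% in the Idh2 mutant. With equal weight for each CpG the differences were -5.14 points (knockout, adjusted p = 0.334) and -3.53 points (Idh2 mutant, adjusted p = 0.487), so the Kcnh4 calls move with the share of reads at each CpG. With GMP and MEP libraries of a title prefix summed, the Kcnh4 call for the Idh2 mutant also ended (adjusted p = 0.0674).

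Cacnb4, a calcium channel beta subunit, was at 20.9% to 31.9% in wild type libraries, 8.0% and 9.74% in knockout GMP and 2.00% and 9.89% in knockout MEP, which did not overlap. The difference of -20.6 points (adjusted p = 0.0144 in the quasi-binomial model) lay in the pair of CpGs 257 and 381 bases upstream. The first of these went from 45.7% and 48.1% in wild type GMP and MEP to 19% and 22.8% in the knockout, and the second from 59.3% and 63.5% to 35.4% and 13.1%. The second also held 29.2% and 23.4% of the reads in wild type and 14.5% and 10% in the knockout. With equal weight for each CpG the difference was -9.41 points (adjusted p = 0.184). The 2 calls of the knockout against wild type both ended, for a count of 0, without the first wild type GMP, second wild type MEP or first knockout GMP library, and 1 was left without the first knockout MEP library. The Cacnb4 p-values without these 3 libraries were 0.0692, 0.0714 and 0.0656, and Cacnb4 also ended without the second wild type GMP library (0.0637).

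No member differed between MEP and GMP (0 of 70, 0.0475% of all promoters) in the quasi-binomial model, with 5 members at an unadjusted p under 0.05, and limma called 0. The effect of Idh2 R140Q did not differ between MEP and GMP at any member or any other promoter (0.0% of all), with 3 members at an unadjusted p under 0.05. For the knockout the same counts were 0, 0.0% and 4, and limma called 0 in both tests. The counts at an unadjusted p have no share over all promoters beside them. Some members pass that cut where nothing differs.

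Further from the starts, at CpGs inside the gene and more than 1 kb from all its starts, 75 members were measured among 6350 genes. Against wild type MEP the double mutant was higher at 15 gene bodies (20%, where 12% of all genes were) and lower at 2 (2.44% of all). The median difference was 4.97 points over the members and 3.67 over all genes, and the median member level was 80.8% in wild type MEP and 85.2% in the double mutant. Kcna1, a Shaker-type pore whose promoter was not tested, was at 4.98% and 3.63% in wild type MEP and 39.4%, 41.5% and 47.0% in the double mutant (adjusted p = 1.53e-07 in the quasi-binomial model). Scn4b, a sodium channel beta subunit also without a tested promoter, went from 6.88% and 11.5% to 36.4%, 41.0% and 36.0% (adjusted p = 0.000112). These bodies were low in wild type, unlike most members, and no other library passed 8.01% at Kcna1 or 12.05% at Scn4b.

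The Kcnk12 gene body went from 44.9% and 46.6% in wild type MEP to 76.3%, 74.3% and 77.2%, while its promoter stayed under 3%, but the Idh2 mutant libraries ranged from 49.4% to 85.0%. Cacna1a, the P/Q-type pore, went from 45.7% and 47.7% to 68.7%, 68.5% and 68.3% over 41 CpGs. Kcnk16 went from 74.1% and 76.5% to 93.7%, 97.6% and 96.1%, but knockout MEP was also at 96% and 93.9%. Against knockout MEP the Kcnk16 body differed by 0.861 points (adjusted p = 0.848 in the quasi-binomial model). Kcnk15 went from 31% and 41.5% to 80.3%, 72.3% and 62.8% on 3 CpGs, and that call ended without the first or second double mutant library (adjusted p of 0.133 and 0.0814) or either wild type MEP library (0.200 and 0.0844). Cacna1e, the R-type pore, was at 77.7% and 84.0% and then 67.6%, 68.2% and 62.4%. It was lower by the test, but not without the second wild type MEP library (adjusted p = 0.0780). Kcnn4, the intermediate-conductance channel, was lower at 46.3%, 48.3% and 33.4% against 55.4% and 58.5%. That call ended without the third double mutant library (0.0838) or either wild type MEP library (0.0825 and 0.112). Neither Cacna1e nor Kcnn4 was called lower against knockout MEP or Idh2 mutant MEP. The adjusted p in the quasi-binomial model was 0.433 and 0.118 at Cacna1e, and 0.244 and 0.523 at Kcnn4. Without the first wild type MEP library 10 of the 17 gene-body calls were made. Of 46 members measured in both places, 5 were higher at both (10.9%), compared with 4.38% of all 4223 genes so measured.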

How the data were processed

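The submitters' processing notes name BSMAP 2.74 and the build mm9. The authors deposited, for each cytosine of a CpG, counts of methylated and of all reads, and a methylation fraction. The deposited fraction equalled the ratio of these counts to within 0.0005 and entered no test. How reads were trimmed, and whether duplicates were removed, is not given in the sources used here, so reads may overstate molecules.

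Reads of both strands were summed, which left 241527 autosomal CpGs that every one of the 15 libraries covered by 10 reads or more. A promoter's level is the share of methylated reads at CpGs within 1 kb of any start, so CpGs with more reads weigh more. A quasi-binomial logistic model with 7 group means and 8 residual degrees of freedom was fitted to each of 10532 promoters, with a dispersion squeezed towards a common value and not under 1, and an F test on the logit scale. P-values were adjusted by Benjamini-Hochberg over all promoters, and a call needs at least 10 points of difference and an adjusted p under 0.05. The model was also run on simulated data, whose outcome is not given here, so that run lends the calls no support. Software was R 4.3.3 with limma 3.58.1, and Python 3.11.15 with scipy 1.17.1, numpy 2.4.6, matplotlib 3.10.9 and pandas 2.3.3.

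Named genes were, per comparison, up to 12 called members per direction with the largest difference, the members of each family with the highest and lowest wild type level, and up to 6 gene bodies per direction. Cacna1h, Cacnb3, Kcna7, Kcnj11, Kcnj12 and Kcnk10 were chosen after their values were seen. Some members that this rule names are not reported here. The members and lists were chosen with earlier results of these data known. Alternatives were 20 reads, 500 bp, 25 points, limma on log2 ratios with a pseudocount of 1, the compared groups alone, a replicate block, summed libraries of a title prefix and each library left out. Equal weight per CpG and the title prefix as a block for MEP against GMP were added after seeing the data. Differences between replicates 1 and 2 were correlated over promoters between GMP and MEP of a genotype. The correlation was 0.316 in wild type, 0.178 in the knockout and 0.388 in the Idh2 mutant. Between groups of different genotypes it was -0.132 to 0.206, a range that holds the knockout value. The titles give same-numbered GMP and MEP libraries of a genotype a shared prefix, so alternatives used the prefix as a block or summed its libraries. The model above has no pair term.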

Additional observations from a re-analysis of the deposited data

Results flagged for a closer look

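At 18 members the double mutant level departed by at least 10 points from the sum of both single mutants' differences from wild type MEP. They also had an adjusted p under 0.05 for the same contrast on the logit scale in the quasi-binomial model. A sum on the logit scale is not a sum of levels, so the points and the p-value measure different departures. The double mutant is also labelled malignant and the Idh2 mutant lacks Cre, so genotype, malignancy and Cre cannot be told apart in this contrast. It was above 0 at 16 members (8.18% of all promoters) and below 0 at 2 (1.18% of all). The median over the 70 members was 10.1 points, and over all promoters 0.

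The largest values were in Kcnk2 (47.1 points, adjusted p = 0.00468), Kcna6 (46.6 points, 0.00223), Kcnf1 (44.4 points, 0.0029) and Cacna2d1 (40.5 points, 0.00504). The sum gives a level under 0%, which cannot occur, in Kcna6 (-2.83%), Kcnk2 (-0.453%), Kcnh4 (-5.37%) and Cacna1a (-0.316%), so their values in points exceed the double mutant level itself. Kcnk4 (33.6 points), Kcns3 (32.2 points), Kcnn2 (31.4 points) and Kcnip4 (26.6 points) followed. Smaller values were found in Cacna1s (21.7 points), Cacna1i (18.9 points), Kcnh5 (18.5 points), Cacna1h (13.8 points) and Cacna1a (12.8 points, adjusted p = 0.0498). Kcnk15 (10.4 points) was near the limit of 10 points.

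Kcnh4 gave 37.0 points (adjusted p = 0.00261), and 12.9 points (adjusted p = 0.087) with equal weight per CpG. The values below 0 were Kcng2 (-18.0 points, adjusted p = 0.00719) and Kcnh6 (-10.5 points, adjusted p = 0.0227). The Kcnh6 value was -4.27 points (adjusted p = 0.283) with equal weight per CpG, and 0.46 points at 500 bp. Without the first or without the second wild type MEP library, 11 of the 18 calls were made.

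The Cacna2d1 call also ended at 500 bp (40.4 points, adjusted p = 0.761) and at 20 reads per CpG (0.0534). At 500 bp the calls of Cacna1a, Cacna1i, Kcnh6 and Kcnn2 ended too, and at 20 reads those of Kcnip4 and Kcnk15. By limma the calls of Cacna1h, Cacna1i, Cacna1s, Kcng2, Kcnh5, Kcnh6 and Kcnk15 ended (adjusted p of 0.0516 to 0.112). With the compared groups alone those of Cacna1a, Cacna1h, Cacna1i, Cacna1s, Kcnh5 and Kcnh6 ended, and with equal weight per CpG also those of Cacna1a, Cacna1i and Cacna1s.

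Of the 18 calls, 7 held without each of the 9 libraries in turn: Kcna6, Kcnf1, Kcng2, Kcnh4, Kcnk2, Kcnk4 and Kcnn2. The calls of Cacna2d1 (adjusted p = 0.073) and Kcnip4 (0.189) ended without the second wild type MEP library and that of Kcns3 (0.0924) without the first. Kcnk15 ended without the third double mutant library (9.74 points), the first Idh2 mutant MEP library (9.73 points) or the second wild type MEP library (adjusted p = 0.0659). Cacna1h and Cacna1s ended without the first knockout MEP (0.0896 and 0.101), first wild type MEP (0.334 and 0.0641) or second Idh2 mutant MEP library (0.0841 and 0.120). Kcnh5 held only without the second or the third double mutant library or the second knockout MEP library, and Cacna1i only without the third double mutant library or the second knockout MEP library. Cacna1a held only without the third double mutant library. Kcnh6 ended without the second knockout MEP library (-7.77 points), the third double mutant library (-9.89 points), either wild type MEP library (adjusted p of 0.0723 and 0.0693) or the second Idh2 mutant MEP library (0.155).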

How the results depend on the processing

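Where a named difference was called in the main run or in the alternative, its direction was kept, except at Kcnh6. In the test of the double mutant beyond both single mutants, Kcnh6 was at 0.46 points at 500 bp. Named differences called in neither run were not compared for direction. At a limit of 25 points, 16 members were called in the double mutant against each of wild type, knockout and Idh2 mutant MEP, 9 beyond both single mutants, 4 in gene bodies, 1 for the Idh2 mutant against the knockout, and 0 for either single mutant against wild type. At 20 reads per CpG, which left 39 promoters and 50 gene bodies, the double mutant counts were 16, 15 and 15, 8 were beyond both single mutants, 10 in gene bodies, 1 for the Idh2 mutant against wild type, 0 for the knockout and 1 for the Idh2 mutant against the knockout. With the compared groups alone these last 3 counts were 1, 0 and 1, and 12 were beyond both single mutants. At 500 bp the Idh2 mutant against the knockout gave 1. By limma they were 0, 0 and 0, gene bodies gave 10, 23, 25 and 26 members were called in the double mutant comparisons, and 12 beyond both single mutants, 11 of them among the 18. With equal weight per CpG the knockout gave 0, and the double mutant 32, 31 and 31. With a replicate block, in which the third double mutant library does not bear on these contrasts, the counts were 31, 32 and 30 for the double mutant, 16 beyond both single mutants, 14 in gene bodies, 2 in each single mutant comparison and 0 between MEP and GMP. Same-numbered libraries of different genotypes correlated by -0.132 to 0.206, so this block rests on a shared number only. The title prefix as a block between MEP and GMP gave 0.

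With 1 library left out at a time, the counts ran from 26 to 30 (double mutant against wild type MEP), 26 to 35 (knockout MEP), 23 to 30 (Idh2 mutant MEP), 1 to 4 (Idh2 mutant against wild type), 0 to 2 (knockout against wild type), 2 to 3 (Idh2 mutant against knockout), 11 to 21 (beyond both single mutants) and 10 to 16 (gene bodies), and stayed at 0 between MEP and GMP and for both tests of a difference in effect between them. Apart from fewer CpGs, fewer samples or a stricter limit, which some alternatives impose by construction, the cause of these changes was not tested. Of the 31 calls against wild type MEP, 20 held under all alternatives run other than 25 points.

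The mean member level in wild type GMP, wild type MEP, knockout GMP, knockout MEP, Idh2 mutant GMP and Idh2 mutant MEP was 6.81%, 6.78%, 6.15%, 5.94%, 8.31% and 7.99% at 20 reads. At 500 bp it was 6.24%, 6.04%, 6.00%, 5.11%, 7.56%, 7.28% and, in the double mutant, 19.4%. As a mean of CpG fractions it was 8.78% in wild type GMP and 10.1% in Idh2 mutant MEP. The promoters of 10 members rest on 3 CpGs.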
